A study of Mus musculus with 51 samples.

Results

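The report concerns 10 genes of meiosis and of late germ cell development, of the 24538 genes listed in the expression tables: *Tex11*, *Syce1*, *Sycp1*, *Sycp2*, *Sycp3*, *Smc1b*, *Stag3*, *Dazl*, *Mael* and *Taf7l*. They were taken by symbol from all 9 tables. The genes had been selected on the expression values of these same tables, in the time course and in the KO comparisons, so that their levels and ratios are given as a description, with no test.

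RNA-seq was carried out in mouse embryonic stem cells (mESCs) and in cells differentiated from them towards cardiac mesoderm with 20 ng/ml mouse Bmp4, a ligand that activates the Smad1/5 branch of TGFβ family signaling. All lines were kept on feeder fibroblasts, which were removed before differentiation, and the stage called ES corresponds to aggregates that had not yet received Bmp4. WT cells of the F1G4 strain were sampled at ES and on days 1, 2 and 3. *Eomes* KO, *T* KO and *Eomes*/*T* double KO (dKO) cells of the same strain were sampled on days 2 and 3. In these lines the promoter and the first exon of a T-box factor gene of nascent mesoderm were deleted with paired Cas9 nickases, single clones were picked, and the dKO line descended from *Eomes* KO cells. *Smad4* KO cells, in which Cre had removed the floxed first exon of the common Smad co-factor, and WT cells with the unrecombined conditional alleles were sampled on days 1 and 2 (strain 129S/SvEvxC57BL/6). All samples from day 1 onwards had received Bmp4. GEO lists 18 RNA samples, 2 for each F1G4 WT stage and 1 for each other condition.

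Expression was given as FPKM (fragments per kilobase of transcript, scaled to the mapped fragments of the library), a measure per transcript length that allows levels of different genes to be set side by side. Each table held a single pooled FPKM value per gene and condition, so that no SD, n or test could be obtained, and the read depth is unknown. A gene was examined in a comparison if its FPKM was above 1 in either column, and it was called higher or lower if the log2 ratio of FPKM was above 1 or below -1, the limits given in the study's methods. Shares of all examined genes are for this rule unless another setting is named, and they change with the setting. Medians over lists use log2 ratios of FPKM + 0.1. For scale, genes with a mean FPKM between 0.979 and 2.35 differed between the 2 WT strains on day 2 with a robust SD of 0.54 on the log2 scale, and those between 13.8 and 24.5 with 0.28. This spread also contains strain differences and is no replicate error.

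The columns summed to between 401510 and 608585 FPKM over all genes, and 10402 to 11248 genes were above 1. Some KO columns stood apart. The dKO column of day 2 had the sum of 608585 against 458639 in its WT column, and when the examined genes were ranked by transcript length into 4 equal groups, the shortest had a median log2 ratio of 0.30 and the longest -0.27. In the *Eomes* KO column of day 3 the sum was 401510 and the same medians were -0.23 and 0.18. In the *T* KO column of day 2 the group of genes with the lowest GC content had a median of -0.07 and that with the highest 0.14. Ratios centred on transcript length and GC content are given below for members that these trends touch. *Eomes* read 2.42 on day 2 and 0.276 on day 3 in *Eomes* KO cells, against 9.42 and 20.3 in their WT columns, and *T* read 6.64 and 3.00 in *T* KO cells against 44.8 and 323. The *Smad4* deletion cannot be read from a value for the whole gene. Feeder markers summed to at most 5.36 FPKM over 7 genes, with at most 2 of them above 1, and the 6 markers of the 2-cell-like state of ES cells summed to at most 0.405.

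Meiosis is the pair of divisions that makes haploid gametes, during which homologous chromosomes align along the synaptonemal complex and exchange DNA. *Sycp2* and *Sycp3* encode proteins of its lateral axes, *Sycp1* the transverse filament that bridges them, and *Syce1* a component of the central element. *Smc1b* and *Stag3* encode meiosis-specific subunits of cohesin, the ring that holds sister chromatids together. *Tex11* encodes an X-linked protein that promotes crossovers, *Dazl* an RNA-binding protein of germ cells, *Mael* (Maelstrom) a factor of the piRNA pathway that silences transposons, and *Taf7l* an X-linked, germ cell-enriched relative of the general transcription factor subunit *Taf7*. In somatic cells such genes are typically kept silent by DNA methylation of their promoters and by the Polycomb complex PRC1.6, which contacts DNA through E2f6 and through the Mga-Max pair, a reader of the E-box CACGTG. Mouse ES cells are known to express several of them at low levels.

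The sequences before the transcription start are shown because 5 of the 9 members with a window share this E-box. Whether it bears on their levels was not tested. RefSeq windows (GRCm38.p6) of 300 bases, from 250 bases before to 50 after the start, were searched for CACGTG, which is its own reverse complement, and on both strands for the E2F site GGCGGGA or TCCCGCC (the motifs can share no more than 1 base). *Sycp3* held CACGTG at -64 and -43, *Taf7l* at -49, *Sycp1* at -94, *Stag3* at -170 and *Mael* at -223, counted from the start to the first base of the motif. The *Stag3* window (chr5:138280259-138280558) is that of the curated transcript and lies inside the span of the gene, since predicted transcripts begin further upstream, so that its E-box is not upstream of every listed start. Of all 32851 windows 7.15% held it, and of the 12507 windows of genes that reached FPKM 1 in any condition 10.1%. The E2F site was found in the *Mael* window only among the members, at 2 positions, and in 11.3% of all windows. No match was found for these letters in the windows of *Sycp2*, *Syce1*, *Smc1b* and *Dazl*. The stretches around the E-boxes follow, 5′ to 3′ on the strand of the gene, with the E-box in capitals. For *Sycp3* the 150 bases before the start are shown (chr10:88459437-88459586, plus strand), since both of its E-boxes lie there. The others are *Sycp1* at chr3:102936152-102936231, *Mael* at chr1:166238925-166238994 and *Taf7l* at chrX:134476506-134476576, all on the minus strand.
Sycp3: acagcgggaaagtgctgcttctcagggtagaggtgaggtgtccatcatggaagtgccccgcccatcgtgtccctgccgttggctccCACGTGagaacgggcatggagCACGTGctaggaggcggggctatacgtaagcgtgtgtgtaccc
Sycp1: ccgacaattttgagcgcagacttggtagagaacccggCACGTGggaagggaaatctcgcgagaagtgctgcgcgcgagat
Mael: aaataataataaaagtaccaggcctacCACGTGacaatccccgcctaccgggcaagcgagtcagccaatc
Taf7l: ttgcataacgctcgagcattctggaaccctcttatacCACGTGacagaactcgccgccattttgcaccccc

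The windows also differed in CpG content. The ratio of observed to expected CpG had a median of 0.795 over the 9 members, against 0.384 over all windows and 0.755 over those of genes reaching FPKM 1. It was highest for *Smc1b* (1.08), *Stag3* (1.06) and *Taf7l* (1.03) and lowest for *Sycp2* (0.363). The genes lie apart, on 9 chromosomes: *Mael* on chromosome 1, *Sycp2* on 2, *Sycp1* on 3, *Stag3* on 5, *Syce1* on 7, *Sycp3* on 10, *Smc1b* on 15, *Dazl* on 17, and *Tex11* and *Taf7l* on X. Exons of *Sycp3* (chr10:88459587-88473236) share 80 of 1122 bases with curated transcripts of *Chpt1* on the opposite strand, and 536 if predicted transcripts are included. The libraries were strand-specific, but the strand setting of the counting is not given in the sources used here. *Chpt1* ranged from 3.74 to 9.46 FPKM, between 3.74 and 5.58 in the WT time course. Its part in the *Sycp3* values was not tested.

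In WT cells, 7 of the 10 members were called lower on day 3 than at ES, whereas *Sycp3* and *Taf7l* were called higher on day 1 and were back near their ES level on day 3. *Syce1*, the central element gene, read 14.2 FPKM at ES, 5.46 on day 1, 2.23 on day 2 and 0.368 on day 3, a 38.4-fold range. *Dazl* read 3.43, 3.75, 1.18 and 0.0709, so that it fell by 5.59 on the log2 scale from ES to day 3, all of it after day 1. *Sycp1* read 3.73, 3.06, 1.22 and 0.169. These 3 genes were called lower in each step after day 1, and *Syce1* was also called lower from ES to day 1 (log2 ratio -1.37).

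*Tex11* and *Mael* followed at a shallower slope. *Tex11* read 6.03, 5.09, 2.77 and 0.884 FPKM from ES to day 3, and *Mael* read 4.76, 6.12, 3.33 and 0.743. Both were called lower from day 2 to day 3, with log2 ratios of -1.65 and -2.17. The cohesin subunit genes declined less. *Smc1b* read 1.43, 1.03, 0.698 and 0.480, and *Stag3* read 9.11, 6.90, 4.15 and 4.43, a level that did not fall further after day 2. From ES to day 3 both passed the limit, *Smc1b* with a log2 ratio of -1.57 and *Stag3* narrowly with -1.04, or -0.98 after centring on length and GC content.

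The axis gene *Sycp3* took another course. It read 11.0 FPKM at ES, 37.3 on day 1, 32.5 on day 2 and 10.9 on day 3, so that ES and day 3 differed by -0.02 on the log2 scale. *Taf7l* showed the same shape at a level below 2 FPKM (0.442, 1.58, 1.39 and 0.449), as did *Sycp2*, which encodes the partner of Sycp3 on the axis but stayed below 1 FPKM throughout (0.259, 0.676, 0.321 and 0.0860). From ES to day 1 the log2 ratios were 1.76 for *Sycp3* and 1.84 for *Taf7l*, which were both called higher, and 1.39 for *Sycp2*, which was not examined.

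**Figure D1:**
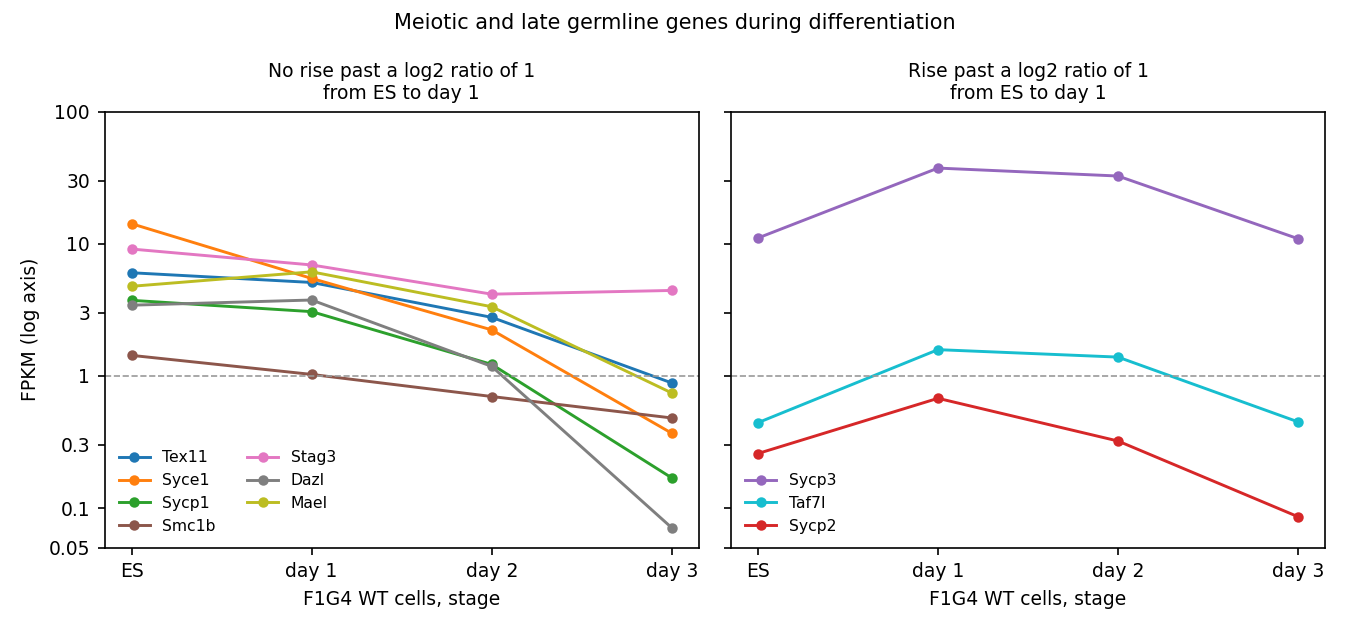
FPKM of the 10 members in F1G4 WT cells (log axis) at ES and on days 1, 2 and 3; each point is the single pooled value of a stage, and the dashed line marks FPKM 1. The left panel holds the 7 members without a rise past a log2 ratio of 1 from ES to day 1, of which *Dazl* ends at 0.0709 and *Stag3* at 4.43; the right panel holds *Sycp3*, *Taf7l* and *Sycp2*, with their highest values on day 1.

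Counted over the members, 2 of 9 examined were called higher and 1 lower from ES to day 1, when 13.5% of all examined genes were called in either direction. From day 1 to day 2, 3 of 9 were called lower (4.13% of all examined genes). The members' log2 ratios of FPKM + 0.1 ran from -1.59 to -0.18 there. From day 2 to day 3, 7 of 8 were called lower (4.06%), and from ES to day 3, 7 of 8 (12.6%). With an FPKM minimum of 5, 1, 1 and 3 members were called in these last 3 comparisons. The medians of the 10 log2 ratios were -0.06, -0.86, -1.56 and -1.96 in these 4 comparisons, those of the examined genes -0.05, 0.00, 0.01 and -0.02. As the members were listed with these values known, nothing is read from their counts against the background. From ES to day 1 the X-linked members *Tex11* and *Taf7l* had log2 ratios of -0.24 and 1.84, and the X-linked genes as a group had a median of 0.04 there and of 0.33 from ES to day 3. In these bulk samples, fewer cells that express a gene and less RNA per cell cannot be told apart.

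The order of the levels changed over the time course. At ES *Syce1* led, followed by *Sycp3*, *Stag3* and *Tex11*, and *Sycp3* made up 20.3% of the summed FPKM of the members, 54.4. From day 1 on *Sycp3* was first and *Stag3* second. The sum was 71.0 on day 1, 49.8 on day 2 and 18.6 on day 3, with *Sycp3* at 52.6%, 65.3% and 58.7% of it. On day 3 *Sycp3* and *Stag3* were the 2 members still above FPKM 1. *Tex11* and *Mael*, at 0.884 and 0.743, came next and lay closer together than the spread between the WT strains at this level.

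The *Eomes* KO line had higher levels of these genes than WT cells on day 2. *Mael* read 10.7 FPKM in *Eomes* KO cells against 3.31 in WT (log2 ratio 1.69), *Sycp1* 3.85 against 1.21 (1.67), and *Dazl* 2.88 against 1.17 (1.30). *Syce1* read 5.12 against 2.21 (1.21) and *Tex11* 6.29 against 2.76 (1.19). These 5 were called higher, of 9 examined, where 3.35% of all examined genes were called higher. The other members also had higher values, among them *Stag3* with 7.92 against 4.12 (0.95) and *Sycp3* with 53.4 against 32.3 (0.73). All 10 members were above WT, as were 48.8% of all genes with any expression. The median log2 ratio of the members was 1.04 and that of the examined genes -0.01. The count of 5 became 3 as TPM, which shifted every ratio here by -0.22, 3 with an FPKM minimum of 5 and 2 with a pseudocount of 1.

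The dKO gave the same direction on day 2. *Syce1* read 6.65 FPKM against 2.21 in WT (log2 ratio 1.59), *Sycp1* 3.50 against 1.21 (1.53), *Mael* 8.91 against 3.30 (1.43) and *Tex11* 6.86 against 2.75 (1.32). *Sycp3* reached 65.1, its highest value in any condition, against 32.2 in WT (1.01). These 5 of 9 examined members were called higher (3.48% of all examined genes), and all 10 were above WT (48.8% of all genes with any expression). *Dazl* read 1.83 against 1.17 (0.65) and was not called. The median over the members was 0.90. The trend with transcript length touches these values. After centring, the ratio of *Sycp3*, whose exons span 1122 bases, was 0.41, whereas that of *Syce1* was 1.36, *Sycp1* 1.31, *Mael* 1.18 and *Tex11* 1.14. With each column rescaled to the same total, every ratio of this comparison dropped by 0.41 on the log2 scale, and 3 members were past the limit.

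In *T* KO cells the members were divided on day 2. *Stag3* read 13.1 FPKM against 4.29 in WT (log2 ratio 1.61), its highest value in any condition, and this ratio was 1.67 after centring. *Tex11* read 5.85 against 2.87 (1.02) and *Syce1* 4.65 against 2.30 (1.01), both close to the limit. These 3 of 9 examined members were called higher (5.7% of all examined genes), and 1 with a pseudocount of 0.1 or 1. *Sycp1* was level with WT (1.29 against 1.26), as was *Sycp3* (32.3 against 33.6), with a log2 ratio of -0.06, or 0.11 after centring. *Taf7l* was lower, 0.857 against 1.42 (-0.73). Of the members 8 were above WT, beside 49.8% of all genes with any expression, and their median was 0.57.

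The day 2 levels of the KO lines were also set beside the WT stages. For this the KO columns were scaled through their WT columns to the time course. *Tex11*, *Sycp1*, *Sycp3*, *Smc1b*, *Mael* and *Taf7l* were above the WT day 1 level in both *Eomes* KO and dKO cells. *Stag3* was above it in *Eomes* KO and *T* KO cells, *Syce1* in dKO cells and *Tex11* also in *T* KO cells. Some margins were small, as for *Smc1b* in *Eomes* KO cells (1.13 against 1.03). The share of all genes above that level was not obtained, so nothing is read from how many members were. *Dazl* and *Sycp2* were not above it in any of the 3 lines. *Syce1* stayed below its ES level of 14.2 in all of them. The 3 KO lines share the F1G4 WT samples as control, so their comparisons are not independent of each other.

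**Figure D2:**
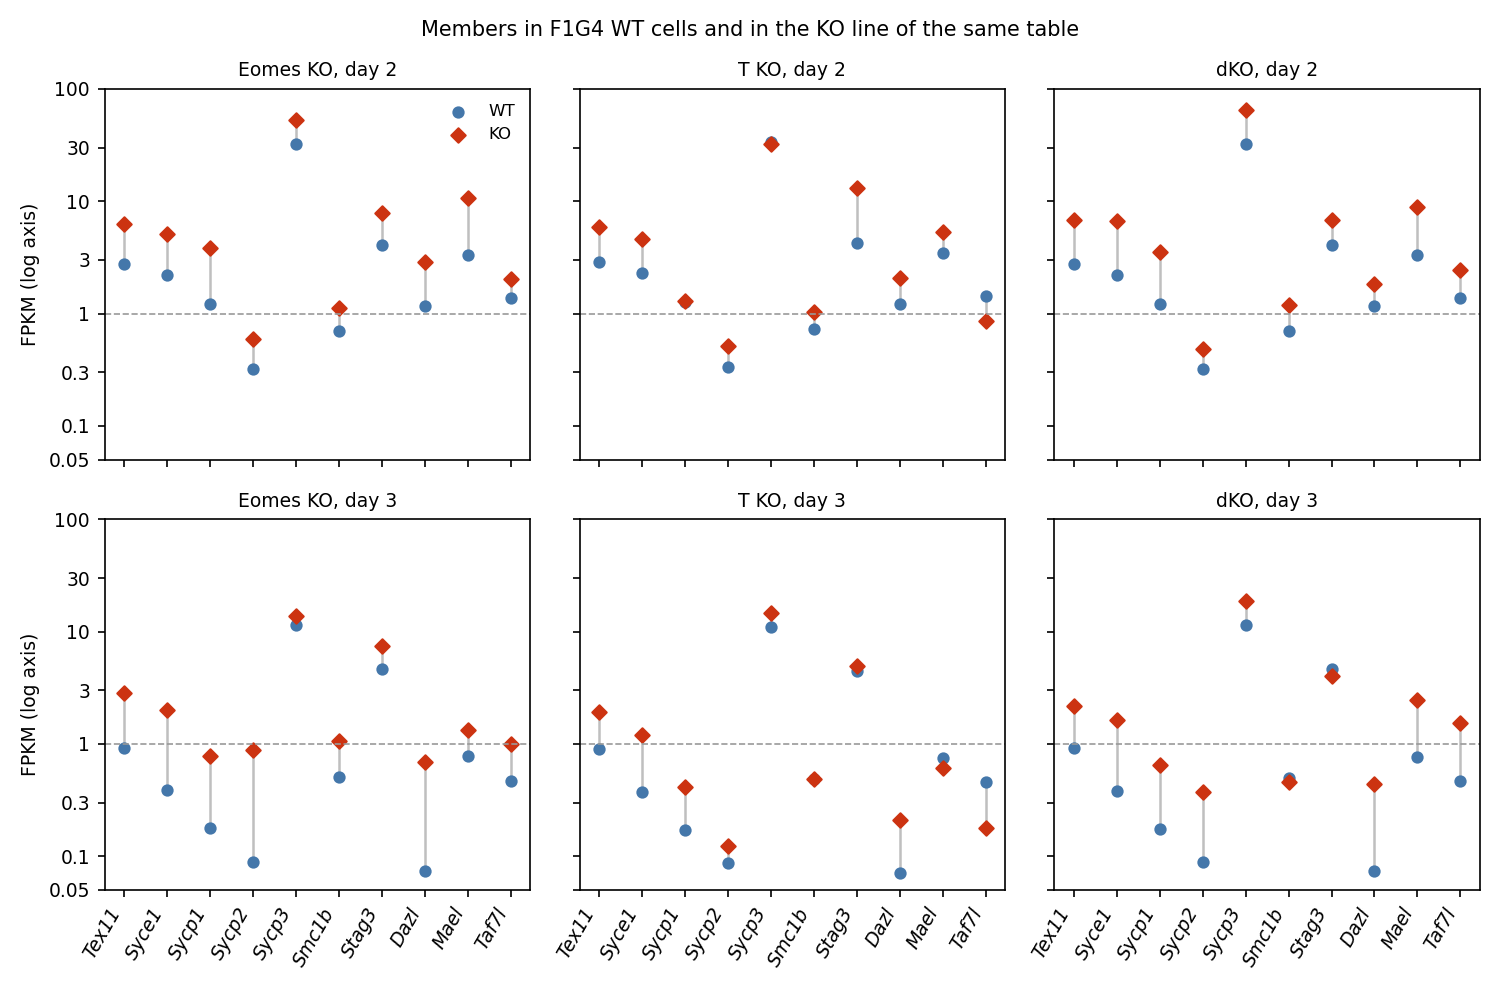
FPKM of the 10 members (log axis) in the *Eomes*, *T* and double KO lines (red diamonds) and in the F1G4 WT column of the same table (blue circles), (day 2 in the upper row day 3 in the lower); each symbol is a single pooled value, grey lines join WT and KO, and the dashed line marks FPKM 1. On day 2 all 10 diamonds lie above their circles in *Eomes* KO and dKO cells, and 8 in *T* KO cells; on day 3 *Sycp3* and *Stag3* are the highest members in each panel.

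On day 3 most members were low in every line, and fewer could be examined. *Tex11* was at 2.82 FPKM in *Eomes* KO cells and 0.921 in WT (log2 ratio 1.62), and *Syce1* at 2.02 and 0.385 (2.39). *Smc1b* passed the limit with 1.05 and 0.502 (1.07). These 3 of 6 examined members were called higher in *Eomes* KO cells, beside 7.39% of all examined genes. *Dazl* (0.691 and 0.0736), *Sycp2* (0.879 and 0.0894) and *Sycp1* (0.775 and 0.177) had log2 ratios above 2, but none of them reached FPKM 1. All 10 members were above WT, as were 52.7% of genes with any expression, and the median of the members was 1.23. After centring, *Mael* also passed the limit (1.03). The count of 3 depended on the settings: it was 8 as TPM, which shifted every ratio here by 0.28, 7 without an FPKM minimum, 2 with a pseudocount of 0.1, 1 with a pseudocount of 1 and 0 with a minimum of 5. The share of 7.39% does not apply to these other counts.

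In dKO cells on day 3, *Syce1* read 1.62 FPKM against 0.383 in WT (log2 ratio 2.08), *Taf7l* 1.53 against 0.468 (1.71), *Mael* 2.46 against 0.770 (1.68) and *Tex11* 2.17 against 0.917 (1.25). These 4 of 6 examined members were called higher (5.51% of all examined genes). *Stag3* (4.03 against 4.60) and *Smc1b* (0.452 against 0.500) were slightly below WT, and the other 8 members above it (51.4% of all genes with any expression). The median was 1.38. The count of 4 was 0 with a pseudocount of 1 or an FPKM minimum of 5, and 7 without a minimum. *Taf7l* and *Mael* were higher than in the *Eomes* KO column, where they read 0.995 and 1.32, while *Smc1b* and *Stag3* were lower than there (1.05 and 7.47); these values come from separate tables and were not tested.

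In *T* KO cells on day 3, *Tex11* (1.92 against 0.891, log2 ratio 1.10) and *Syce1* (1.21 against 0.372, 1.70) were called higher, of 4 members examined, beside 2.12% of all examined genes. *Sycp3* read 14.6 against 11.0 (0.40) and *Stag3* 4.93 against 4.47 (0.14). *Taf7l* and *Mael*, called higher in dKO cells, were below WT here, with 0.180 against 0.454 and 0.605 against 0.749. In all 7 members were above WT (49.7% of all genes with any expression), with a median of 0.33. With a pseudocount of 1 or an FPKM minimum of 5 the count was 0. Without a minimum 5 members were called, of which *Taf7l* was lower (log2 ratio -1.34) and the others higher. *Tex11* and *Syce1* were the only members called higher in all 6 comparisons of these KO lines with WT, and *Sycp2* was examined in none. This rests on the settings: with a pseudocount of 0.1 both dropped below the limit in *T* KO cells on day 2 (*Syce1* at 0.98 and *Tex11* just under 1), and as TPM both did so in *Eomes* KO cells on day 2 (*Tex11* 0.97). As TPM *Tex11* also dropped below it in dKO cells on day 2, where its log2 ratio of 1.32 was shifted by -0.41. With a pseudocount of 1 or an FPKM minimum of 5 neither was past the limit in all 6.

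The fall from day 2 to day 3 was seen in the KO lines as well. Across the separate tables, scaled as above, 7 of 9 examined members were called lower from day 2 to day 3 in *Eomes* KO cells (11.7% of all examined genes), 8 of 8 in *T* KO cells (9.34%) and 7 of 9 in dKO cells (3.58%). The median log2 ratios of the members were -1.29, -1.48 and -1.77, beside -1.56 in WT cells. *Mael* dropped from 10.8 to 1.27 FPKM in *Eomes* KO cells on this scale, and *Sycp3* from 65.8 to 18.0 in dKO cells. *Smc1b* and *Stag3* changed little in *Eomes* KO cells, from 1.13 to 1.01 and from 8.00 to 7.15.

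**Figure D3:**
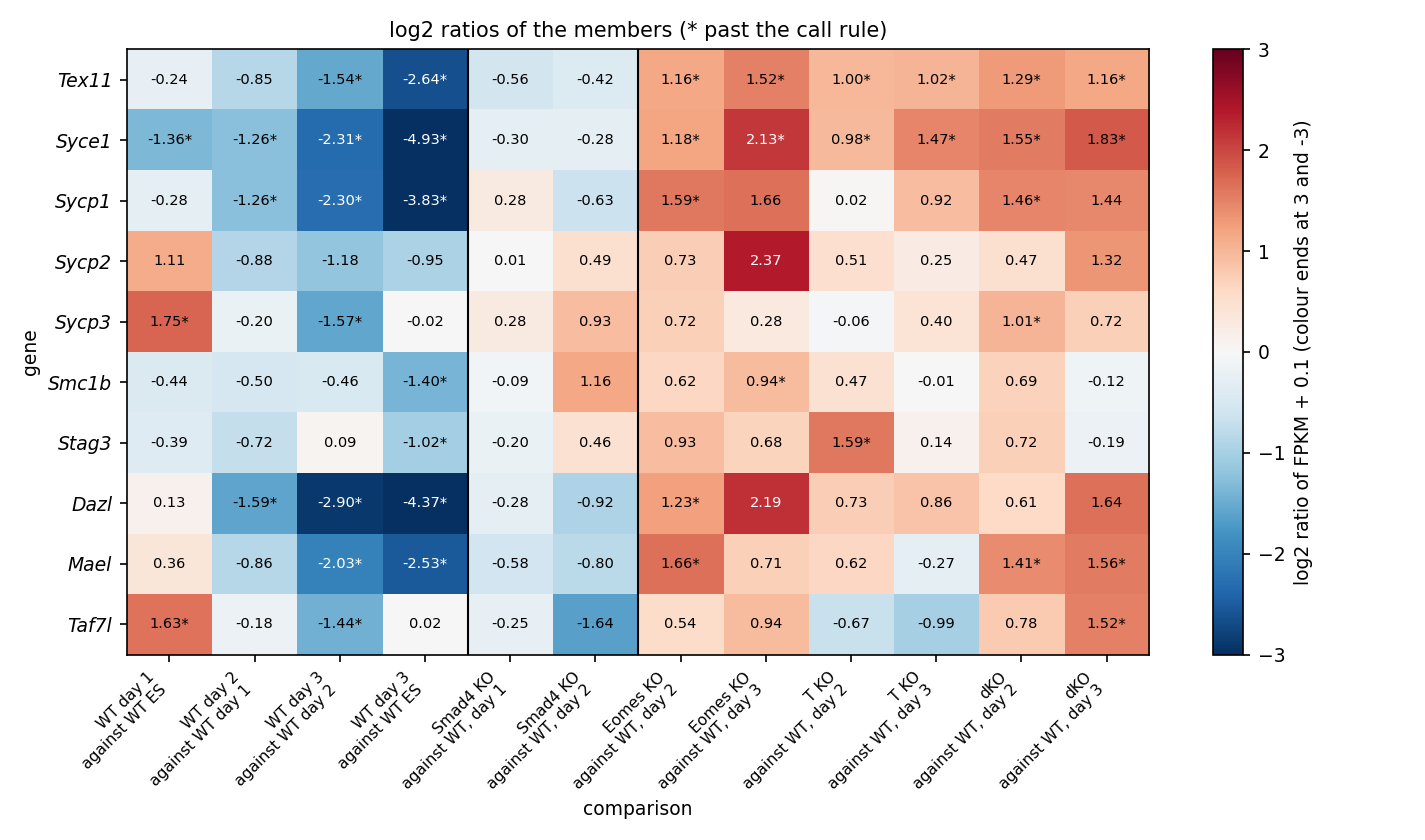
Log2 ratios of FPKM + 0.1 of the 10 members (rows) in the 12 comparisons (columns); red is higher and blue lower in the first-named condition, the colour ends at 3 and -3, and an asterisk marks ratios past the call rule on FPKM without the pseudocount. The vertical lines part the WT time course, the *Smad4* KO and the other KO lines; *Tex11* and *Syce1* carry an asterisk in all 6 columns on the right, which no longer holds with a pseudocount of 0.1 or 1, as TPM or with an FPKM minimum of 5.

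In *Smad4* KO cells the examined members stayed within the limit. On day 1, 7 members could be examined and none was called in either direction, where 4.77% of all examined genes were called. The largest differences among them were in *Mael* (2.65 FPKM in KO against 4.03 in WT, log2 ratio -0.60) and *Tex11* (2.23 against 3.34, -0.58). *Sycp3* read 45.4 against 37.5 (0.28) and *Syce1* 5.21 against 6.43 (-0.30). On day 2 none of 5 examined members was called (5.77% of all examined genes), whereas 3 were as TPM or without an FPKM minimum. *Sycp3* came closest, with 34.4 in KO and 18.0 in WT (0.93), followed by *Mael* with 0.599 and 1.12 (-0.90). *Stag3* read 2.25 against 1.60 (0.48), *Tex11* 1.03 against 1.41 (-0.45) and *Syce1* 1.50 against 1.84 (-0.29). Ratios past the limit were found in 3 members below FPKM 1 in both columns. *Taf7l* read 0.135 in KO against 0.631 in WT, *Dazl* 0.225 against 0.514, and *Smc1b* 0.516 against 0.176. *Sycp1*, also below FPKM 1, read 0.135 against 0.264 (-0.97). The medians of the members were -0.22 and -0.35. In the same comparison *T* and *Eomes* read 0.891 and 1.73 in KO against 26.6 and 24.8 in WT.

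The WT cells of the 2 strains differed in the levels of these genes, more on day 2 than on day 1. The *Smad4* line had no ES sample, so its starting levels are unknown. On day 1 *Sycp1* read 3.06 FPKM in F1G4 cells and 0.665 in WT cells of the *Smad4* line, a log2 difference of -2.15 after the median of all genes was set to 0, and *Dazl* 3.75 and 1.54 (-1.23). *Sycp3* was alike in both (37.3 and 37.5). Of 9 members examined on day 1 these 2 were lower in the *Smad4* line by more than 1 on the log2 scale (3.84% of all examined genes). On day 2, 5 of 8 were (3.51%) and none was higher, with a median of -1.16 over all 10. *Sycp1* read 1.22 and 0.264, *Mael* 3.33 and 1.12, *Stag3* 4.15 and 1.60, and *Sycp3* 32.5 and 18.0. Strain, line and table cannot be told apart in this difference. The *Smad4* KO values were therefore set against their own WT columns alone, and at these lower levels fewer members could be examined than in F1G4 cells.

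**Figure D4:**
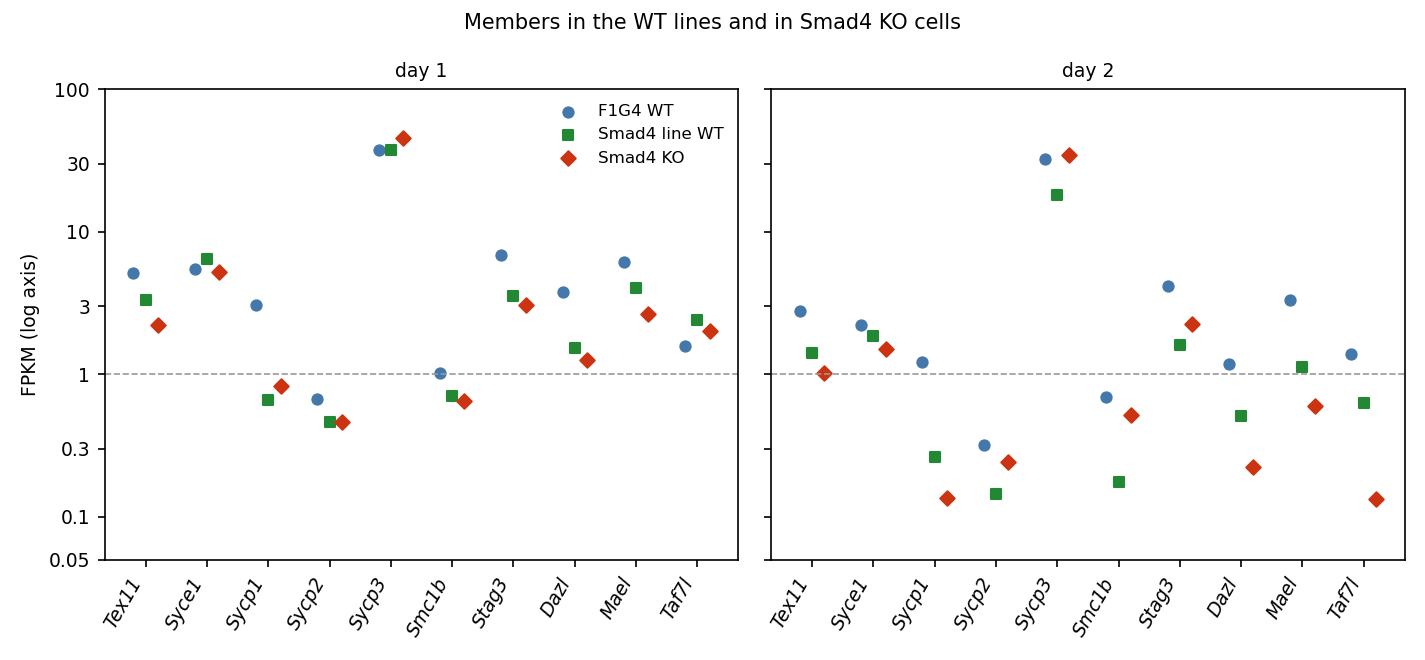
FPKM of the 10 members (log axis) on day 1 and day 2 in F1G4 WT cells (circles), WT cells of the *Smad4* line (squares) and *Smad4* KO cells (diamonds); each symbol is a single pooled value and the dashed line marks FPKM 1. On day 2 *Mael* lies at 3.33 in F1G4 WT cells and at 1.12 in WT cells of the *Smad4* line, and *Sycp3* at 18.0 in the latter and at 34.4 in *Smad4* KO cells.

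Other genes of the synaptonemal complex and the chromosome axis followed in part. Of the 8 listed, 6 were examined from ES to day 3 in WT cells, and 3 of them were called lower, where 12.6% of all examined genes were. *Hormad1*, an axis protein that monitors synapsis, read 21.8, 10.7, 2.38 and 0.224 FPKM in the WT time course, a steeper course than any member's. It read 9.11 in *Eomes* KO and 9.98 in dKO cells on day 2, against 2.36 in both WT columns (log2 ratios 1.95 and 2.08), and 3.27 in *T* KO cells against 2.46 (0.41). *Syce2*, the partner of central element proteins, was expressed far above the members, at 57.6 to 91.8 in the WT time course, and was called in no comparison. *4930447C04Rik* read 3.00 to 8.70 in WT cells and 8.99 in *Eomes* KO cells on day 3 (1.52). *Rec8*, which encodes the meiotic kleisin subunit of cohesin, ranged from 2.00 to 4.50 in the F1G4 time course and was called higher on day 3 in *Eomes* KO (6.98 against 3.10, 1.17) and dKO cells (8.41 against 3.09, 1.45). On day 2 the medians of the list were 0.76 in *Eomes* KO, 0.50 in *T* KO and 0.72 in dKO cells.

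Genes of meiotic entry and recombination were divided. *Meioc*, which encodes a partner of the RNA helicase Ythdc2 needed for entry into meiotic prophase, had the transient shape of *Sycp3*, with 4.35, 14.4, 7.14 and 2.24 FPKM in WT, and read 9.05 in dKO cells on day 3 against 2.33 (log2 ratio 1.96). *Ythdc2* itself stayed between 6.46 and 9.86 in WT cells. The 3 highest recombination genes, *Trip13*, *Mnd1* and *Psmc3ip*, read 42.8 to 65.7, 40.8 to 57.7 and 35.0 to 39.4 in the WT time course and were called in no comparison of WT stages. The median of the 21 recombination and telomere attachment genes lay between -0.29 and 0.38 in all 12 comparisons. Of these genes 11 were examined from ES to day 3 in WT cells, and 5 were called lower and none higher. Of all examined genes 12.6% were called lower there. *Spo11*, the nuclease that opens meiotic recombination, stayed at or below 0.125 in all 14 conditions, *Prdm9* at or below 0.406, and *Stra8*, the factor that triggers meiotic entry, reached 1.53 in *Eomes* KO cells on day 2 against 0.0272 in WT; these 3 genes were chosen after their values were seen.

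Among the 18 piRNA and genome defence genes, 7 of 10 examined were called lower and 3 higher from ES to day 3 in WT cells, with a median of -1.47 (12.6% of all examined genes were called lower). *Rnf17* fell from 49.1 to 8.36 FPKM, *Tdrd12* from 43.5 to 1.22 and *Tex19.1* from 40.6 to 1.88. On day 2, *Tex19.1* was higher in *Eomes* KO (10.5 against 2.59), *T* KO (8.80 against 2.70) and dKO cells (9.72 against 2.59), with log2 ratios of 2.02, 1.71 and 1.91. *Tdrd12* read 8.21 against 4.32 in *Eomes* KO cells (0.93) and was not called, and *Rnf17* was level with WT in the 3 lines (0.26, -0.33 and 0.20). The later germline genes stood at or near 0 for the most part. Of 21, 7 were examined from ES to day 3, and 5 of these were called lower (12.6% of all), while *Tex15* stayed between 9.57 and 10.8, *Ddx25* between 6.21 and 8.43, and *Tex14* fell from 4.12 to 0.636. On day 2, 3 of 6 examined were called higher and 1 lower in *Eomes* KO cells. In *T* KO cells 1 of 4 was called higher, and in dKO cells 4 of 7. Of all examined genes 3.35%, 5.7% and 3.48% were called higher in these comparisons. On day 3 none of this list was called in the 3 lines.

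Genes of the machinery that represses germline genes were expressed throughout. Of 13 genes of PRC1.6, all were examined in every comparison, and 5 were called lower from ES to day 3 (12.6% of all examined genes), 1 higher. *Cbx3* read 223 FPKM at ES and 180 on day 3 in WT cells, *Cbx1* 223 and 82.1, and *Tfdp1* 151 and 75.2. In the 6 comparisons of the T-box KO lines with WT, no more than 1 of the 13 was called in any, and the medians lay between -0.26 and 0.19. The DNA methyltransferase *Dnmt3b* peaked on day 1 (455) and was 91.2 on day 3. *Dnmt3l*, its regulatory co-factor, fell from 248 to 7.71 in WT and was called lower in *T* KO cells on day 2 (5.41 against 24.0, log2 ratio -2.15), in *Eomes* KO cells on day 3 (2.54 against 8.06, -1.67) and in *Smad4* KO cells on day 1 (64.8 against 132, -1.03) and day 2 (4.59 against 21.9, -2.25). *Uhrf1* read 160 at ES and 90.8 on day 3. *Trim28*, *Setdb1* and *Ehmt2*, genes of the repressive methylation of histone H3, read 501, 42.6 and 41.0 at ES and 152, 20.6 and 24.6 on day 3. Binding or methylation at the promoters of the members was not examined here.

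The somatic counterparts ran at another level and on another course. *Rad21* read 83.6 to 139 FPKM in the WT time course, *Stag2* 76.9 to 159 and *Taf7* 115 to 188, so that *Taf7* exceeded *Taf7l* in every WT stage. None of the 6 counterparts was called lower from ES to day 3, and their median was -0.39. In *T* KO cells on day 2, 2 of them were called lower, *Smc1a* (37.2) and *Smc3* (36.5). None was called in the other comparisons of a KO with WT. The primordial germ cell genes differed from the members in the KO lines: on day 2 their medians were -0.62 in *Eomes* KO, -0.10 in *T* KO and -0.23 in dKO cells, where those of the members were 1.04, 0.57 and 0.90. *Dppa3* fell from 218 at ES to 16.0 on day 3 in WT and read 20.9 against 34.4 in *Eomes* KO cells on day 2, and *Ifitm3* 11.7 against 37.0. *Ddx4* (Vasa, an RNA helicase of germ cells) read 17.3 against 9.64 there (log2 ratio 0.85).

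**Figure D5:**
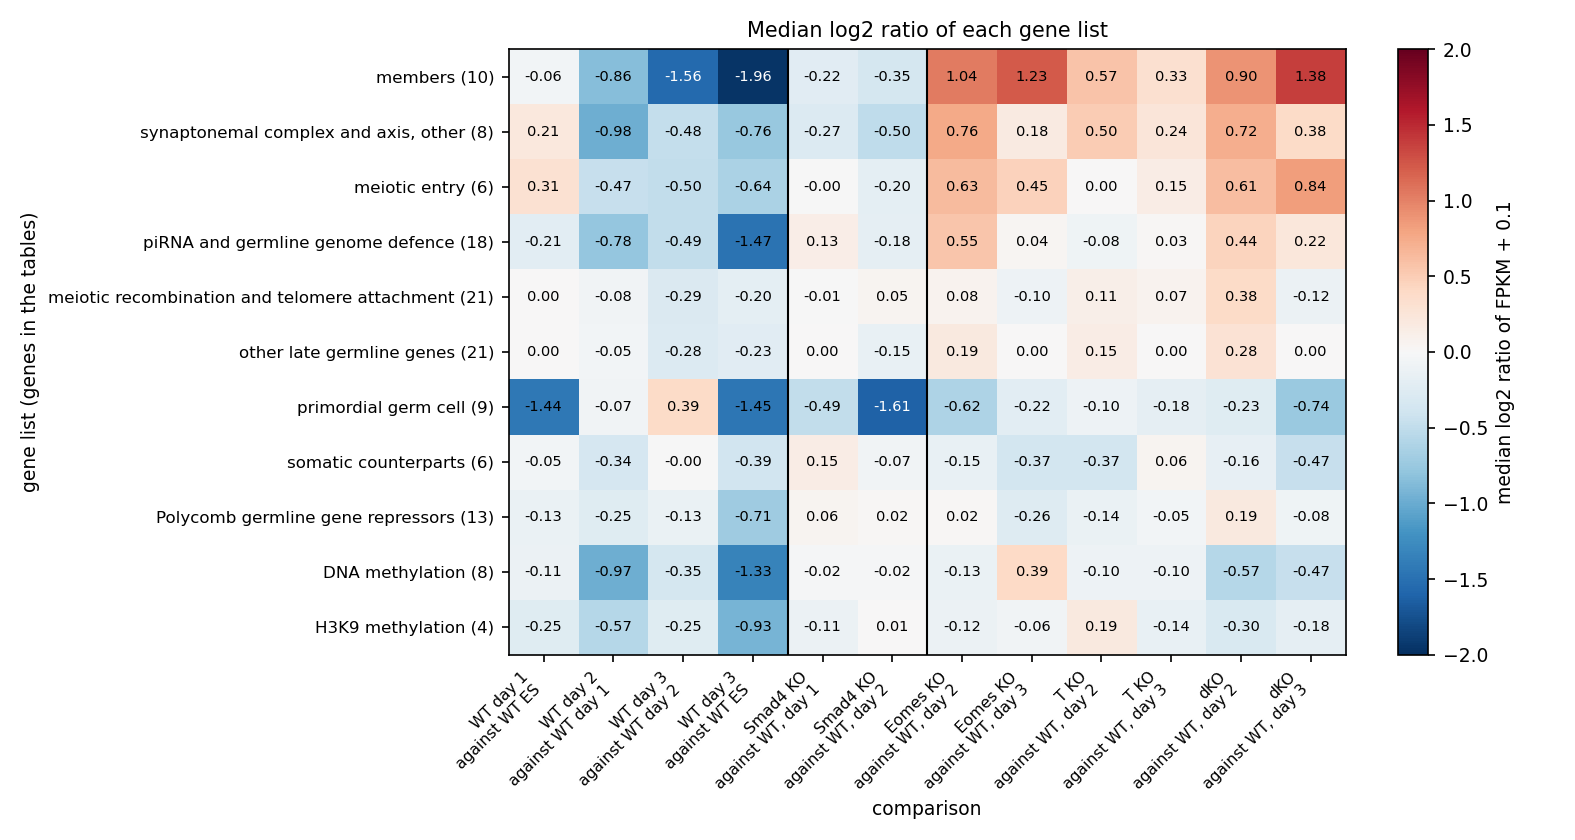
Median log2 ratio of FPKM + 0.1 of the members and of 10 other gene lists (rows, with the number of genes in the tables) in the 12 comparisons (columns); red is higher and blue lower in the first-named condition. In *Eomes* KO cells on day 2 the members have a median of 1.04 and the list of primordial germ cell genes one of -0.62.

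Across the 14 conditions, the members fell into those that varied together and those that did not. The Pearson correlation of log2(FPKM + 0.1) was 0.95 between *Tex11* and *Sycp1*, 0.92 between *Syce1* and *Dazl*, and 0.91 between *Mael* and *Tex11*. *Sycp3* correlated with *Stag3* at 0.02 and with *Mael* at 0.62, and *Taf7l* with *Mael* at 0.76. These values are a description over conditions that share WT samples, strain and day, and they were computed for the 9 members that reached FPKM 1. Among 12590 genes, those most like *Tex11* were *Zfp987* (0.95), *Sycp1* and *Hormad1* (0.94). *Zfp987* was also nearest to *Sycp1* (0.97), followed by *Hormad1* (0.96) and *Zfp936*. *Gm14124* was nearest to *Dazl* (0.97) and *Mael* (0.93), and *Hist1h2aa* was in the first 3 for both. *Syce1* was most like *Rpl10l* (0.97), *Zfp990* (0.97) and *Zfp345* (0.94), *Sycp3* like *Usp44* (0.92) and *Cnr1* (0.91), and *Stag3* like *Tango6* (0.93) and *Prdm4* (0.92). *Smc1b* was nearest to *Gm2694* (0.94). For *Taf7l* the nearest, *Anks3*, was at 0.85 and *Meioc* the third at 0.79.

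The level of *Zfp987*, a zinc finger gene, varied with that of *Sycp1* (correlation 0.97), but less closely in *T* KO cells on day 2. It read 11.7, 7.08, 2.98 and 0.839 FPKM in the WT time course and, on day 2, 7.03 in *Eomes* KO, 5.21 in *T* KO and 7.14 in dKO cells. *Sycp1* read 3.85, 1.29 and 3.50 in these lines on day 2, against 1.22 in the WT time course. In *T* KO cells it was thus level with WT, whereas *Zfp987* was above WT. *Usp44*, a deubiquitinase gene, had the transient course of *Sycp3*, with 6.04, 19.8, 11.7 and 4.09 in WT cells. The 5 members with an E-box in their window did not share a course: *Sycp3* and *Taf7l* rose on day 1, while *Sycp1*, *Stag3* and *Mael* did not pass the limit there. On day 2, 2 of these 5 were called higher in *Eomes* KO, 1 in *T* KO and 3 in dKO cells. Of all examined genes 3.35%, 5.7% and 3.48% were. On day 3 the counts were 0, 0 and 2 (7.39%, 2.12% and 5.51%). Of the 4 members searched without a match, *Syce1* was called higher in each of these comparisons. *Dazl* was called in *Eomes* KO cells on day 2 and *Smc1b* on day 3. *Sycp3*, called in dKO cells on day 2, was at 0.41 there after centring on length and GC content. *Tex11*, also called in each of these comparisons, had no window.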

How the data were processed

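Strand-specific libraries (ScriptSeq v2) were sequenced from both fragment ends. The authors trimmed reads with cutadapt 2.9, aligned them with HISAT2 2.1.0 to mm10 with RefSeq splice sites, and computed the deposited FPKM values with Cuffdiff 2.2.1, with multi-read and bias correction. Each of the 9 tables held 24538 genes and 1 pooled value per condition. Whether a KO column pools several samples is unclear, since the legends speak of averaged replicates. Counts and depth were not used here, and no precision could be given. The authors' tables held no comparison columns. Names turned into dates or duplicated (26) were dropped from the time course.

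Ratios were taken within a table. The KO tables' F1G4 WT columns were multiples (0.989 to 1.04) of the time-course columns. Python 3.11.15, numpy 2.4.6 and pandas 2.3.3 were used, and the steps were checked on simulated data. The members and the 14 gene lists were chosen with earlier results of these data known. Of the 10 members all were named, and of each list the 3 genes with the highest FPKM in any condition, with counts of genes called. Likeness was the Pearson correlation of log2(FPKM + 0.1), with the 3 nearest genes named. Alternatives were a pseudocount of 1 or 0.1 in the calls, an FPKM minimum of 5 or none, rescaling to TPM, centring of the median ratio and, added after the trends were seen, centring on transcript length and GC content in 20 groups each. ChIP-seq and ATAC-seq samples were not analysed here.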

Additional observations from a re-analysis of the deposited data

Results flagged for a closer look

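*Stag3*, the meiosis-specific cohesin subunit gene, changed sign between the days in 2 of the KO lines. Its log2 ratio of KO to WT was -0.21 on day 1 and 0.48 on day 2 in *Smad4* KO cells, and 0.73 on day 2 and -0.19 on day 3 in dKO cells. *Sycp3* did so in *T* KO cells, with -0.06 on day 2 and 0.40 on day 3. None of these ratios was past the limit of 1, each rests on a single pooled value per condition, and the difference between the days was not tested.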

How the results depend on the processing

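No paired analysis was possible because each column pools its condition, and for the same reason no replicate could be left out. Of the ratios of single members recomputed with another pseudocount, scaling or centring, 553 moved by less than the spread between the WT strains at their level, 47 moved by more and none of those called changed sign. With a pseudocount of 1 the members called were 2 (day 2) and 1 (day 3) in *Eomes* KO, 1 and 0 in *T* KO, and 0 in dKO on day 3. With a pseudocount of 0.1, 1 was called in *T* KO on day 2. With an FPKM minimum of 5, which leaves few members to examine, day 2 of the *Eomes* KO had 3, each T-box KO line had 0 on day 3, and 1 was called in WT from day 1 to 2, 1 from day 2 to 3 and 3 from ES to day 3. Without a minimum, 7 were called in *Eomes* KO on day 3, 7 in dKO and 5 in *T* KO on day 3 (*Taf7l* lower, the others higher), and 3 in *Smad4* KO on day 2. As TPM above 1, which admits lower levels than FPKM above 1, 3 were called in dKO and 3 in *Smad4* KO cells on day 2, and the *Eomes* KO had 3 on day 2 and 8 a day later. This rescaling shifted all ratios by -0.41 for the dKO and -0.22 for the *Eomes* KO of day 2, and by 0.28 for the latter on day 3. The members' median from ES to day 1, -0.06, became 0.040 as TPM and 0.011 with the median ratio set to 0. Centring on length and GC content, chosen after seeing the data, left each count within 1.5 times. The unknown depth limits every value below FPKM 1.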

Other observations

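Some germline genes outside the 10 took the opposite course, and they were chosen after their values were seen. *Tdrd5*, a Tudor domain gene of the piRNA pathway, read 3.44 FPKM at ES, 5.73 on day 1, 15.2 on day 2 and 26.3 on day 3 in WT cells. On day 3 it read 2.76 in *Eomes* KO, 5.16 in *T* KO and 3.56 in dKO cells, against 27.6, 26.6 and 27.4 in their WT columns. *Dnd1*, which encodes an RNA-binding protein of primordial germ cells, read 6.11, 3.29, 4.22 and 15.8 in WT cells, and on day 3 5.27, 3.78 and 5.01 in the same KO lines against 16.5, 15.9 and 16.4. On day 3 these genes were thus lower in the KO lines, whereas *Tex11* and *Syce1* were higher there.

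Other genes were chosen after the genes most like the members were seen. *Zfp990* read 68.6 FPKM at ES and 5.05 on day 3 in WT cells, *Zfp534* 61.1 and 2.26, and *Zfp936* 45.0 and 1.89. On day 2 *Zfp534* read 28.7 in *Eomes* KO and 26.7 in dKO cells, against 8.75 in the WT time course. *Hist1h2aa*, a germline-enriched histone variant gene, read 61.1 at ES, 117 on day 1 and 3.10 on day 3 in WT cells.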
